A study of Homo sapiens with 4 samples.

Results

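The TAM receptor tyrosine kinases AXL, TYRO3 and MERTK and their ligands GAS6 and PROS1 were followed in RNA-seq libraries of TU-177, an established human laryngeal squamous cell carcinoma (LSCC) line. All 5 genes were found by symbol among the 28729 genes of the expression table. They were taken as a receptor and ligand family because AXL was among the largest rises after SKA3 knockdown, so the values of AXL that follow are a description and carry no test. The family was set by these names and not by the values of the other 4 genes. RNA came from 2 libraries of cells transduced with a negative control lentivirus (NC) and 2 of cells transduced with a lentivirus carrying an shRNA against SKA3 (SKA3-KD), a subunit of the complex that couples kinetochores to spindle microtubules. Both groups had been selected with puromycin, and each is numbered 1 and 2. The labels do not say whether the numbered libraries came from separate cultures or how many shRNA sequences were used, so p-values measure only the spread between these libraries, which may be technical. The study's methods also describe a Cas9 and donor plasmid route to stable SKA3 knockdown lines, whereas the labels name lentiviral shRNA for the sequenced cells. Effects of the knockdown and of any outgrowth under selection cannot be told apart.

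TAM receptors share an extracellular part of immunoglobulin-like and fibronectin type III domains and an intracellular tyrosine kinase. GAS6 and PROS1 (protein S) are vitamin K-dependent proteins that bind phosphatidylserine on dying cells or membrane fragments with their gamma-carboxylated end and a receptor with the other end, and so bridge both. PROS1 activates TYRO3 and MERTK, GAS6 activates all TAM receptors, and AXL responds to GAS6. In macrophages these receptors drive the uptake of dying cells and dampen inflammation, and in carcinomas AXL is known for its links to invasion and drug resistance.

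The authors deposited FPKM values, which are fragment counts divided by exon length and by library size. The steps of the values gave library sizes of 9015056 to 11966130 reads and whole reads for each gene. SKA3 itself stood at 9.40 and 9.64 FPKM in NC and at 3.77 and 4.12 FPKM in SKA3-KD. Differences were tested with limma on log2(FPKM + 1) over the 12645 genes that averaged at least 1 FPKM, and a log2 fold change always means SKA3-KD minus NC on this scale, which understates changes of low genes. The median log2 fold change of all genes tested was 0.01. Of the genes tested, 6.16% were higher and 6.11% lower in SKA3-KD at an adjusted p-value under 0.05 (limma with Benjamini-Hochberg adjustment). With 2 libraries against 2, an exact two-sided permutation test has a smallest possible p of 0.33, and the limma p-values therefore borrow the spread of all genes. Of 10 epithelial and squamous markers in the table, the simple epithelial keratin KRT8 was high (430.0 to 452.6 FPKM), as was SFN (133.4 to 155.4 FPKM), while the basal keratins KRT5, KRT14 and KRT6A, the squamous factor TP63 and the cadherin CDH1 stayed under 1 FPKM in all 4 libraries. EPCAM was at 2.73 to 2.95 FPKM. A pair of keratins from this list passed the test. KRT17, a keratin of basal and squamous epithelium, fell from 45.6 and 49.1 FPKM to 29.4 and 35.7 (adjusted p = 0.0396, limma), and KRT18, the partner of KRT8, rose from 31.1 and 31.5 FPKM to 39.2 and 38.5 (adjusted p = 0.0332, limma).

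AXL (ENSG00000167601) lies on the plus strand of chromosome 19 of GRCh38 from 41219203 to 41261766. Control cells had 14.8 FPKM (NC 1) and 16.7 FPKM (NC 2), from 914 and 776 reads. Knockdown cells had 43.3 FPKM (SKA3-KD 1) and 44.2 FPKM (SKA3-KD 2), from 2272 and 2688 reads. Both SKA3-KD libraries lay far above both NC libraries, and within each group the libraries were close to each other. Of all genes tested, 32.3% had both SKA3-KD libraries above both NC libraries. The mean was 15.8 ± 1.33 FPKM (SD, n = 2) in NC and 43.8 ± 0.643 FPKM (SD, n = 2) in SKA3-KD, a ratio of 2.78 and a log2 fold change of 1.42. By log2 fold change AXL ranked 16 of 12645 genes tested and 3 of the 11438 with a mean of at least 20 reads, which is the measure it was chosen by. A short antisense gene inside AXL (ENSG00000269652) held 2 to 5 reads in each library. Strand use in the counting is not given in the sources used here, but this number is small against the reads on AXL.

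RefSeq gives AXL a pair of start sites, and the 250 bases before each (GRCh38.p14, plus strand) are shown because the transcription factors described further on are known from work on this promoter. Capitals mark matches on either strand to the GC box GGGCGG of SP1 and SP3, the AP-1 letters TGANTCA (N is any base), the TEAD motif GGAATG, the hypoxia response core ACGTG, the MZF1 core GGGGA and the SNAI2 E-box CAGGTG. The first window is chr19:41218973-41219222 and the second, inside the gene, is chr19:41226505-41226754. The last 20 bases of the first window are already transcribed in a GENCODE 29 isoform.
AXL first start: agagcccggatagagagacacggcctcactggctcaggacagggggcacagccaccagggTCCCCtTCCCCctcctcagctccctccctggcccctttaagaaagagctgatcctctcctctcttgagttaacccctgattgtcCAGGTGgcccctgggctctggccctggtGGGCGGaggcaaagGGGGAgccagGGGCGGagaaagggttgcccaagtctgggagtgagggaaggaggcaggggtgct
AXL second start: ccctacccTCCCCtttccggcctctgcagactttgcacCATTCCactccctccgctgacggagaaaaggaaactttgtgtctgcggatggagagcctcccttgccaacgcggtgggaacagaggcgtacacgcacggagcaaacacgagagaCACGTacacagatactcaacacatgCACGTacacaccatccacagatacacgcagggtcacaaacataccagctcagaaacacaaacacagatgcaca
The first window held 2 GC boxes, starting 78 and 54 bases before the start site, 3 MZF1 cores and 1 SNAI2 E-box. The second held 1 TEAD motif, beginning 212 bases before its start site, 2 hypoxia response cores and 1 MZF1 core. Neither window held the AP-1 letters. Over 35116 windows of this length from all genes, 42.6% held the GC box, 6.57% the AP-1 letters, 11.9% the TEAD motif, 18.5% the hypoxia core, 63.3% the MZF1 core and 17.5% the E-box. Such matches describe the letters of these windows and not binding. All 5 genes of the family matched the RefSeq table. The window before the first start of TYRO3 held 3 GC boxes and 1 match to the AP-1 letters, reading TGAATCA with A in the middle. The PROS1 window held 2 GC boxes and no match to the AP-1, TEAD, hypoxia or SNAI2 letters. Both the TYRO3 and the PROS1 window lie inside the span that GENCODE 29 gives the gene.

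TYRO3, the receptor best known from the nervous system, rose with AXL. TYRO3 (ENSG00000092445, chromosome 15 of GRCh38, 41557675 to 41583586, plus strand) measured 10.8 FPKM (NC 1) and 11.3 FPKM (NC 2) in control cells, from 864 and 680 reads. It measured 16.9 FPKM (SKA3-KD 1) and 16.7 FPKM (SKA3-KD 2) after knockdown, from 1151 and 1322 reads. The groups did not overlap, as in 32.3% of all genes tested for this direction. The means were 11.0 ± 0.341 and 16.8 ± 0.105 FPKM (SD, n = 2 each), and the log2 fold change of 0.57 had a standard error of 0.06 and an adjusted p of 0.0139 (limma). The call was lost without the filter on low FPKM (adjusted p = 0.0507, limma) and with any 1 of the 4 libraries left out (adjusted p from 0.0641 to 0.0767, limma), with log2 fold changes from 0.54 to 0.60. The rise of AXL in log2 units was larger than that of TYRO3, and this difference was not tested. The pseudogene TYRO3P, which could share reads with TYRO3, held 0 to 4 reads in each library.

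MERTK, the receptor that macrophages and the retinal pigment epithelium use to take up dying cells and shed photoreceptor tips, was close to the limit of detection. MERTK (ENSG00000153208, chromosome 2, 111898479 to 112029561) had 1 read in NC 1, NC 2 and SKA3-KD 1 and 2 reads in SKA3-KD 2, or 0.0196, 0.0260, 0.0231 and 0.0398 FPKM. All of these are under a floor of 3 reads, so no fold change is given, and a difference between the groups was not detectable at this depth. MERTK did not pass the filter and, like AXL, is given without a test. In bulk RNA, fewer cells that express a gene and less RNA per cell cannot be told apart, for MERTK as for every gene here.

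GAS6, the ligand of all TAM receptors, did not pass the test. GAS6 (ENSG00000183087, chromosome 13, 113820549 to 113864067, minus strand) measured 3.08 FPKM (NC 1) and 3.73 FPKM (NC 2), from 226 and 206 reads, and 2.84 FPKM (SKA3-KD 1) and 2.64 FPKM (SKA3-KD 2), from 177 and 191 reads. Both SKA3-KD values were below both NC values, a pattern seen in 29.2% of all genes tested. The gap between the groups was smaller than the difference between the NC libraries. Its log2 fold change of -0.23 had a standard error of 0.11 and an adjusted p of 0.228 (limma), and no alternative gave an adjusted p-value under the threshold (0.110 to 0.576, limma). The antisense gene GAS6-AS1 held 10 to 14 reads in each library, few against those of GAS6.

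PROS1, protein S, which in plasma serves as an anticoagulant cofactor, fell. PROS1 (ENSG00000184500, chromosome 3, 93873033 to 93980003, minus strand) measured 5.00 FPKM (NC 1) and 4.36 FPKM (NC 2), from 265 and 174 reads, and 2.66 FPKM (SKA3-KD 1) and 2.18 FPKM (SKA3-KD 2), from 120 and 114 reads. Both SKA3-KD libraries lay well below both NC libraries, an order that 29.2% of all genes tested shared. The means were 4.68 ± 0.455 and 2.42 ± 0.339 FPKM (SD, n = 2 each), a ratio of 0.518, and the log2 fold change of -0.73 had a standard error of 0.12 and an adjusted p of 0.0257 (limma). This call was also lost without the filter (adjusted p = 0.0951, limma) and with any 1 library left out (adjusted p from 0.0708 to 0.117, limma), with log2 fold changes from -0.83 to -0.63. The pseudogene PROS2P held at most 1 read in a library. Of the 4 members past the filter, TYRO3 was thus higher and PROS1 lower past the threshold, GAS6 did not pass, and AXL had been chosen by this contrast and was not tested.

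**Figure D1:**
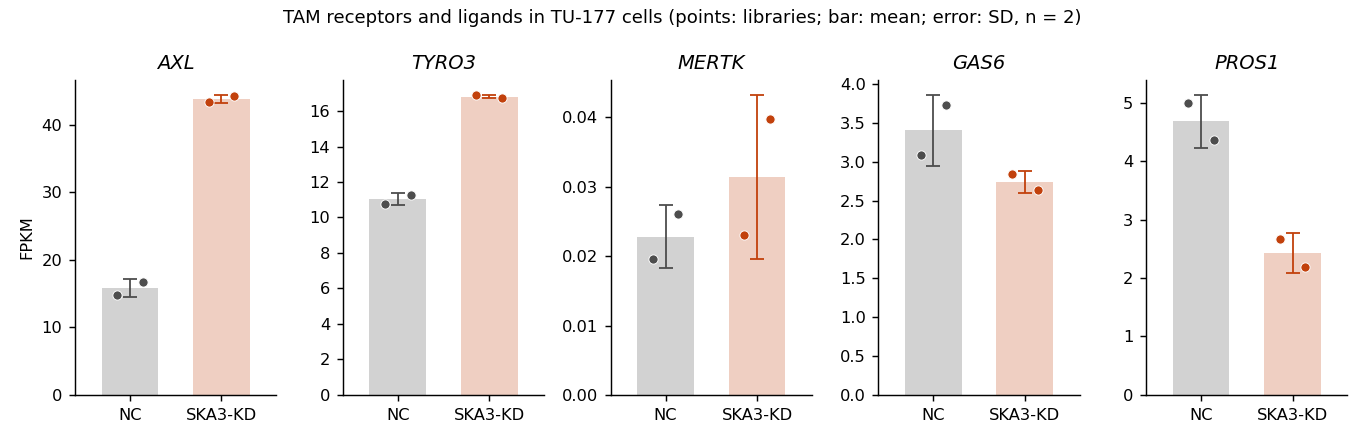
FPKM of each TAM receptor and ligand (vertical axis, own scale in each panel) in NC and SKA3-KD libraries of TU-177 cells; points are libraries, bars the mean of 2 and error bars the SD. AXL and TYRO3 were higher and PROS1 and GAS6 lower in both SKA3-KD libraries, and GAS6 did not pass the test. Of all genes tested, 32.3% were higher and 29.2% lower in both SKA3-KD libraries. MERTK stood on 1 or 2 reads a library.

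Levels of different genes can be compared only roughly, because FPKM is divided by a fixed exon length for each gene, whatever isoforms were expressed. In NC the order was AXL (14.8 to 16.7 FPKM), TYRO3 (10.8 to 11.3), PROS1 (4.36 to 5.00), GAS6 (3.08 to 3.73) and MERTK, and no neighbors in this order overlapped. In SKA3-KD the order of the receptors was the same, and the ligands GAS6 (2.64 to 2.84 FPKM) and PROS1 (2.18 to 2.66 FPKM) overlapped. AXL made up 57.8% and 59.7% of the summed receptor FPKM in NC 1 and NC 2 and 71.9% and 72.5% after knockdown. The receptor sum was 26.8 ± 1.68 FPKM in NC and 60.6 ± 0.550 in SKA3-KD (SD, n = 2 each). The ligand sum was 8.09 FPKM in both NC libraries, and 5.50 and 4.83 FPKM in the knockdown libraries. The ratio of receptor to ligand FPKM was 3.17 and 3.46 in NC and 10.9 and 12.6 in SKA3-KD. The ratio of PROS1 to GAS6 was 1.62 and 1.17 in NC and 0.939 and 0.827 in SKA3-KD. These sums include AXL, the gene chosen for its rise, and are given without a test.

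**Figure D2:**
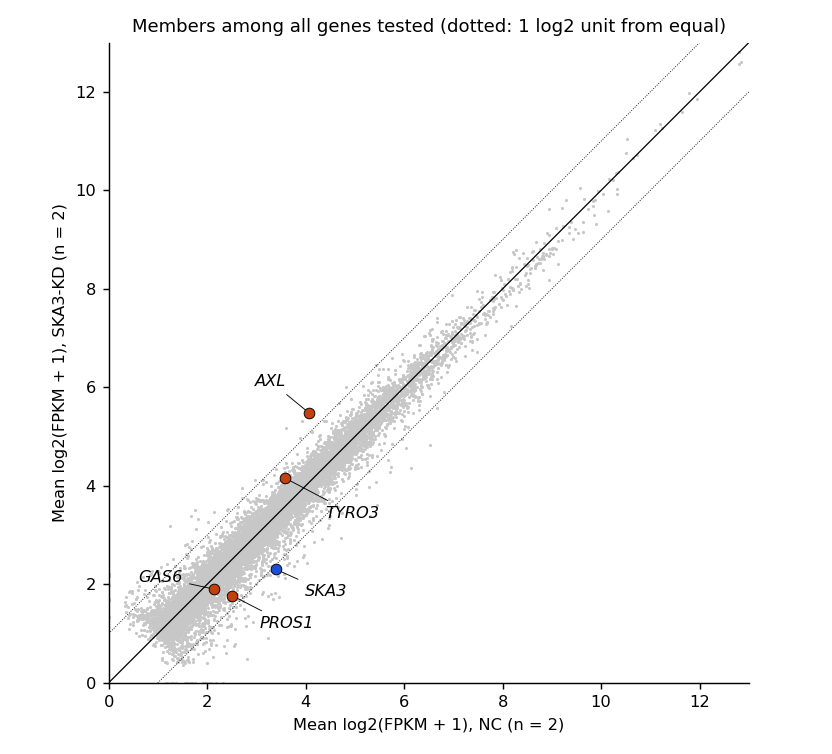
Mean log2(FPKM + 1) of the 2 NC libraries (horizontal axis) against that of the 2 SKA3-KD libraries (vertical axis) for the 12645 genes tested (gray), with the solid line at equal levels and dotted lines 1 log2 unit away. AXL (orange) lay above the upper dotted line with a log2 fold change of 1.42, TYRO3 lay above and PROS1 and GAS6 below the solid line, and SKA3 (blue) lay beyond the lower dotted line.

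The genes around the receptors were described by 10 lists with 144 genes in all, of which 142 were in the table and 118 passed the filter. Past an adjusted p-value of 0.05, 21 of the 118 (17.8%) were higher and 7 (5.93%) lower in SKA3-KD (limma), against 6.16% and 6.11% of all genes tested. Their median log2 fold change was 0.07. The lists were written with earlier results of these data known, among them the rise of NT5E, so these shares are a description. Of the 28 calls, 4 were also made without the filter on low FPKM and 17 without the mean-variance trend, and limma voom on the recovered reads made all 28 and 59 in total. With NC 1 or NC 2 left out none of the 28 was called (limma; 18 lower and 28 higher of the 118 at an unadjusted p-value under 0.05 without NC 1, and 15 and 36 without NC 2), and 2 and 4 were with SKA3-KD 1 or SKA3-KD 2 left out.

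Among the genes that process the ligands, 2 of 8 were higher and none lower, against 6.16% and 6.11% of all genes tested. Their median log2 fold change was 0.16. FURIN, a proprotein convertase of the secretory pathway, was at 40.6 and 46.3 FPKM in NC and at 73.4 and 76.9 in SKA3-KD, a log2 fold change of 0.78 (standard error 0.08, adjusted p = 0.0129, limma). VKORC1L1, an enzyme that recycles vitamin K, rose by 0.32 on the log2 scale (adjusted p = 0.033, limma). GGCX, the carboxylase that makes the phosphatidylserine-binding glutamates of GAS6 and PROS1, was named after its values were seen and had 0.16 (adjusted p = 0.248, limma). Of the other reported TAM ligands, TUB and TULP1 were under the filter, and LGALS3 was at 66.4 to 70.9 FPKM in NC and 67.5 to 68.3 in SKA3-KD, with no direction that held under all scalings. Among 12 genes for shedding and intramembrane cleavage of the receptors, none passed the test, against 6.16% higher and 6.11% lower of all genes tested (limma). At an unadjusted p-value under 0.05, 3 were higher and 2 lower, against 2046 and 1912 of all 12645 (limma). By limma voom 0 were higher and 2 lower, against 1763 and 1562 of all 12645. The median log2 fold change of these 12 genes was -0.05. The most abundant of them were TIMP1, a metalloprotease inhibitor with -0.16 on the log2 scale (adjusted p = 0.110, limma), and APH1A, a gamma-secretase subunit with 0.17 (adjusted p = 0.133, limma). ADAM10 and ADAM17, the sheddases of these receptors, were named after their values were seen and had 0.17 and -0.13 (adjusted p = 0.199 and 0.264, limma).

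Adaptors, effectors and brakes of TAM signaling had 3 higher, 2 lower and 19 not past the threshold. Over all genes tested, 6.16% were higher and 6.11% lower, and the median of the list was 0.06. PIK3CB, a catalytic subunit of phosphoinositide 3-kinase (PI3K), fell from 9.60 and 9.04 FPKM to 5.49 and 5.82 (log2 fold change -0.63, standard error 0.07, adjusted p = 0.015, limma). PIK3CA, another catalytic subunit, had 0.23 (adjusted p = 0.198, limma). The regulatory subunits PIK3R1 and PIK3R2 were listed at 0 to 0.0652 FPKM in all 4 libraries. The annotation and strand use of the counting are not given in the sources used here, so absence of these subunits does not follow. AKT1 and AKT2, kinases downstream of PI3K, had log2 fold changes of 0.25 and -0.27, with adjusted p-values of 0.0894 and 0.0749 (limma). FYN, a kinase of the SRC family, rose by 0.40 (adjusted p = 0.0426, limma). IFNAR1, the interferon receptor chain that TAM receptors engage to induce their inhibitors, rose by 0.45 (adjusted p = 0.0224, limma). SOCS3, one of those inhibitors of cytokine signaling, fell from 19.8 and 23.2 FPKM to 14.5 and 14.6 (log2 fold change -0.53, adjusted p = 0.0293, limma). The call of FYN was close to the threshold and was made by 5 of 8 alternatives with all 4 libraries.

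Of 12 tested genes of the engulfment and Rac machinery, none passed, against 6.16% higher and 6.11% lower of all genes tested (limma). At an unadjusted p-value under 0.05, 1 was higher and 3 lower, against 2046 and 1912 of all 12645 (limma). By limma voom 2 were higher and 4 lower, against 1763 and 1562 of all 12645. RAC1, the GTPase that this machinery switches on, was at 103.0 and 100.5 FPKM in NC and 111.3 and 106.1 in SKA3-KD, and CRK, an adaptor upstream of it, stayed between 34.0 and 34.8 FPKM. Phosphatidylserine exposure had 6 tested genes. TMEM30A, the subunit that the flippases need to keep this lipid on the inner leaflet, fell from 20.1 and 17.5 FPKM to 10.4 and 10.1 (log2 fold change -0.82, standard error 0.08, adjusted p = 0.0127, limma). ANO6, a scramblase that brings the lipid to the surface, rose from 16.5 and 16.6 FPKM to 20.8 and 23.6 (log2 fold change 0.40, adjusted p = 0.0393, limma). Of 8 tested genes for other phosphatidylserine receptors and bridging proteins, 2 were higher and none lower, against 6.16% and 6.11% of all genes tested. EDIL3, a bridging protein, rose by 0.63 and ITGB5, an integrin chain, by 0.50 (adjusted p = 0.0344 and 0.022, limma). Phosphatidylserine on the surface of these cells was not measured.

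Receptor kinases known to pair with AXL had 7 tested genes, 2 higher and none lower, against 6.16% and 6.11% of all genes tested. Their median was 0.27. EGFR, the receptor of EGF, was at 42.8 and 44.7 FPKM in NC and 64.1 and 71.2 in SKA3-KD (log2 fold change 0.62, standard error 0.07, adjusted p = 0.0152, limma). MET, the receptor of hepatocyte growth factor, was at 29.7 and 26.3 FPKM in NC and 36.3 and 37.5 in SKA3-KD (log2 fold change 0.39, adjusted p = 0.0393, limma). In both genes the SKA3-KD libraries lay above the NC libraries, as in 32.3% of all genes tested.

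**Figure D3:**
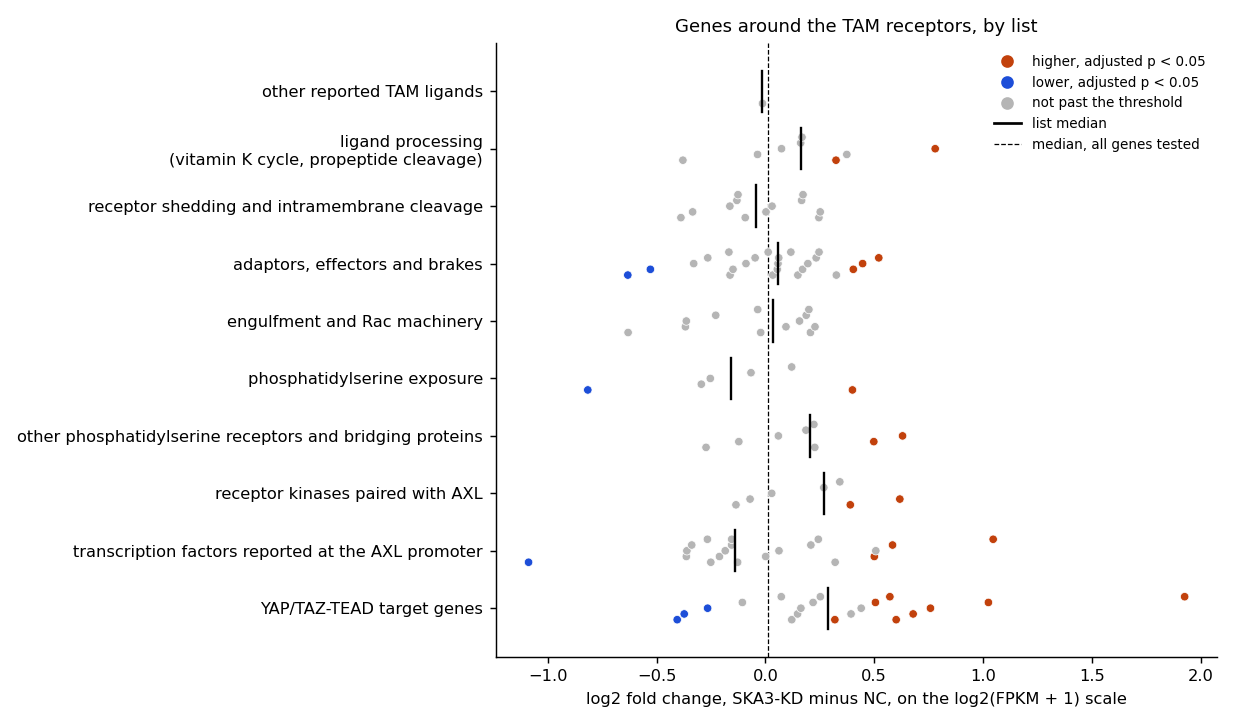
Log2 fold change of each tested gene on the log2(FPKM + 1) scale (horizontal axis), SKA3-KD minus NC, by list (rows); orange and blue points were higher or lower at an adjusted p-value under 0.05 (limma), gray points were not, solid bars mark list medians and the dashed line the median of all genes tested (0.01). The YAP/TAZ-TEAD targets held 8 of the 21 higher genes. The lists for other TAM ligands, receptor cleavage and engulfment held no orange or blue point. Of all genes tested, 6.16% were higher and 6.11% lower.

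Transcription factors reported at the AXL promoter had 3 higher and 1 lower of 20, against 6.16% and 6.11% of all genes tested. Their median was -0.14. FOSL1, an AP-1 subunit, was at 5.40 and 5.70 FPKM in NC and 13.7 and 11.4 in SKA3-KD (log2 fold change 1.05, standard error 0.10, adjusted p = 0.0115, limma). TEAD1, the DNA-binding partner of YAP1 and WWTR1 (TAZ), was at 41.1 and 39.4 FPKM in NC and 62.1 and 59.6 in SKA3-KD (log2 fold change 0.58, standard error 0.06, adjusted p = 0.0122, limma). EPAS1, the hypoxia factor HIF-2 alpha, rose by 0.50 (adjusted p = 0.0158, limma). SNAI2, a repressor of epithelial genes, fell from 9.37 and 8.07 FPKM to 3.79 and 3.34 (log2 fold change -1.09, standard error 0.10, adjusted p = 0.0112, limma). The coactivators YAP1 and WWTR1, named after their values were seen, were both lower without passing the threshold, with log2 fold changes of -0.27 and -0.21 (adjusted p = 0.0537 and 0.122, limma). Activity of these factors was not measured.

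YAP/TAZ-TEAD target genes, a published set from which AXL was left out, had 8 higher, 3 lower and 9 not past the threshold. Over all genes tested, 6.16% were higher and 6.11% lower, and the median of the list was 0.29. CCN1, a secreted matrix protein and a standard YAP target, was at 40.8 and 43.7 FPKM in NC and 83.7 and 90.4 in SKA3-KD (log2 fold change 1.02, standard error 0.07, adjusted p = 0.00806, limma). NT5E, the ectoenzyme that makes adenosine, was at 1.37 and 1.38 FPKM in NC and 7.68 and 8.40 in SKA3-KD (log2 fold change 1.93, standard error 0.09, adjusted p = 0.0065, limma). MYOF (0.57), a membrane repair protein, F3 (0.68), tissue factor, ASAP1 (0.51) and FJX1 (0.60) also rose in log2 units, with adjusted p-values from 0.0112 to 0.0217 (limma). The remaining higher genes were AMOTL2 and CRIM1. The lower genes were LATS2, a kinase that inhibits YAP, with -0.37, FOXF2 with -0.27 and CCDC80 with -0.41, named like AMOTL2 and CRIM1 after their values were seen. The list therefore held called genes in both directions, and its members were known in part to have risen when it was written.

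**Figure D4:**
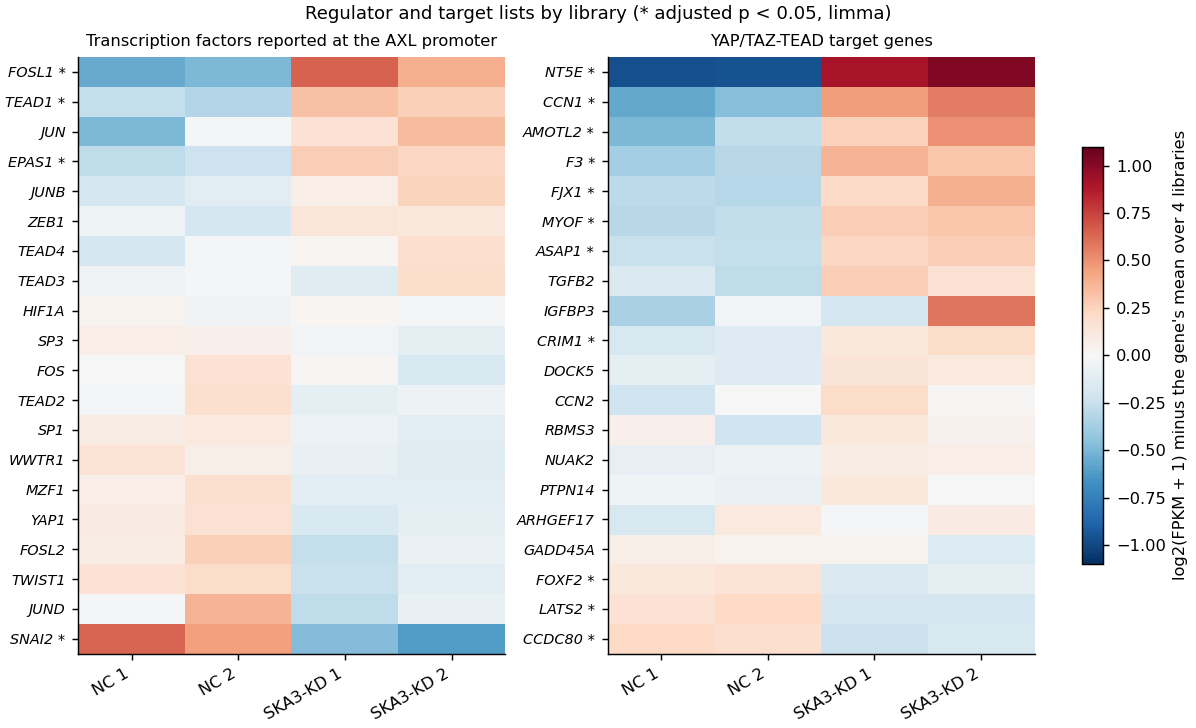
Log2(FPKM + 1) minus the mean of the gene over the 4 libraries (color), for the tested transcription factors reported at the AXL promoter (left) and YAP/TAZ-TEAD targets (right), rows in order of log2 fold change and columns by library; asterisks mark an adjusted p-value under 0.05 (limma). FOSL1, TEAD1, NT5E and CCN1 were high in both SKA3-KD libraries, SNAI2 was low in both, and IGFBP3 was high only in SKA3-KD 2 of the libraries shown.

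The genes whose levels over the 4 libraries lay nearest to those of AXL were found by Euclidean distance between log2(FPKM + 1) values centered on the mean of each gene, among 7302 genes that averaged at least 5 FPKM. The nearest was ETV4, an ETS transcription factor, at a distance of 0.195, with 5.00 and 6.06 FPKM in NC and 15.1 and 14.0 in SKA3-KD. It was followed by GAS1, a cell surface protein of Hedgehog signaling (0.214), OLR1, a scavenger receptor (0.273), ARL2BP (0.337) and EFEMP1, a matrix glycoprotein (0.356). These 5 genes had log2 fold changes from 1.09 to 1.56 against 1.42 for AXL. With 4 libraries in 2 groups, likeness by this measure mostly means a rise of similar size.

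Because macrophages, endothelial cells and fibroblasts also express TAM receptors or ligands, markers of these cells were read in the same libraries. The 6 myeloid markers in the table summed to 0.862 to 0.952 FPKM in NC and 0.646 to 0.784 in SKA3-KD, all of them under 1 FPKM, and PTPRC (CD45) had 1 read in SKA3-KD 2 and was listed at 0 in the other libraries. The 5 endothelial markers summed to 0.559 to 0.776 FPKM in NC and 0.325 to 0.479 in SKA3-KD. The 7 fibroblast markers summed to 12.6 to 13.4 FPKM in NC and 5.50 to 5.74 in SKA3-KD. DCN, a matrix proteoglycan that took the largest part of the sum in NC, fell from 8.40 and 8.36 to 2.48 and 2.35 FPKM (log2 fold change -1.46, adjusted p = 0.0065, limma). COL1A1, the largest of these markers in SKA3-KD, was at 3.22 and 3.99 FPKM in NC and at 2.71 and 2.66 after knockdown (log2 fold change -0.32, adjusted p = 0.14, limma). COL3A1 was under the filter, with 0.797 and 0.765 FPKM in NC and 0.476 and 0.361 in SKA3-KD. LUM stood at 0 to 0.221 FPKM, and COL1A2, FAP and THY1 at no more than 0.0562 FPKM in any library. The marker sums of all 3 cell types were thus lower in both SKA3-KD libraries, where AXL and TYRO3 were higher and PROS1 lower. Single markers did not all follow these sums. CSF1R and DCN were lower, while VWF and FAP, each on few reads, were higher in both SKA3-KD libraries. The libraries were of the TU-177 line, and whether any of these marker reads came from other cells was not tested.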

How the data were processed

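RNA of TU-177 cells was sequenced on an Illumina instrument after Trizol extraction. For each library and Ensembl gene the authors deposited an FPKM value. The submitters' processing notes name hg19 and Bowtie2 2.2.8, HISAT2, StringTie 1.3.1 and Cuffdiff 2.1.1 without their roles, and the annotation and strand use are not given in the sources used here. Libraries were grouped by their titles, 2 NC and 2 SKA3-KD.

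Symbols were taken from a table of Ensembl identifiers (27043 of 28729 matched), positions from GENCODE 29 (GRCh38) and start sites from RefSeq (GRCh38.p14). Library sizes were the most common value of reads per unit of FPKM and exon length. In every library the whole reads on genes came to more than this size (12343378 against 11966130 in NC 1), and the reason was not tested. Reads were whole to within 0.005 plus a relative 1e-06, with the length of GENCODE 29 exons for 61.3% of tested genes and with the shortest length up to 60000 bases that gave whole reads for the others (38.7%). For these, reads could be divided by a factor common to all libraries, and counting error limits genes with few reads. The replicates of a group differed by more than sampling noise (chi-square per degree of freedom 3.16 in NC and 3.15 in SKA3-KD) and were kept apart.

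SKA3-KD was compared with NC by limma 3.58.1 in R 4.3.3 (lmFit and trended eBayes) on log2(FPKM + 1), over genes averaging at least 1 FPKM, with Benjamini-Hochberg adjustment over all of them and a threshold of 0.05. The steps were tested on simulated data. Members, lists and tests were chosen with earlier results of these data known. Named were the 5 members, SKA3, up to 6 genes past the threshold per list (the 2 most abundant where none passed), AKT1, AKT2, the PI3K genes and the 5 genes nearest to AXL, with others said to be chosen after their values were seen. The result of 1 gene under this rule is not reported here. Each library was left out in turn. Other alternatives were limma voom on the recovered reads, the replicate number as a block, robust or untrended eBayes, quantile normalization or median-of-ratios scaling, filters at 5 FPKM or none, and a pseudocount of 0.1. Python 3.11.15 with numpy 2.4.6, pandas 2.3.3, scipy 1.17.1 and matplotlib 3.10.9 was used for the other steps.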

Additional observations from a re-analysis of the deposited data

How the results depend on the processing

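AXL (log2 fold changes from 1.40 to 1.48 with all 4 libraries and from 1.34 to 1.5 with 1 left out), TYRO3, GAS6 and PROS1 kept their direction under every alternative that included them, and GAS6 and PROS1 have no value at a mean FPKM of at least 5. TYRO3 (0.57) and PROS1 (-0.73) lost their calls without the filter on low FPKM, where 26504 genes share the adjustment, and with any library left out (0.54 to 0.60 and -0.83 to -0.63). Against 772 lower and 779 higher genes in all, the counts were 81 and 48 without the filter, 381 and 312 without the trend, and 1562 and 1763 with limma voom. With 1 library left out they ran from 0 to 135 lower and 0 to 46 higher, the remaining library of that group being assumed to vary like the others. The zeros came without NC 1 or without NC 2, where 1486 to 1555 genes were lower and 1638 to 1797 higher at an unadjusted p-value under 0.05 (limma). Against 7 lower and 21 higher pathway genes, the counts were 0 and 4 without the filter (limma; 21 lower and 34 higher at an unadjusted p-value under 0.05), 13 lower at a mean FPKM of at least 5, 3 lower without the trend, 23 and 36 with limma voom, and 0 to 1 lower and 0 to 3 higher with 1 library left out. The causes of these shifts were not tested. LGALS3 (-0.02) changed sign under quantile normalization (0.0067) and without NC 1, with values from -0.063 to 0.032 when a library was left out.

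Same-numbered libraries deviated together with a correlation of only 0.10 over 12645 genes, and nothing in the labels says that a number marks a shared culture. With the replicate number as a block, 965 genes were lower and 1002 higher, and TYRO3 (0.57) and PROS1 (-0.73) stayed past the threshold, while 2 of the 37 other named genes with a test lost their calls. Over the 9 alternatives with all 4 libraries, 293 of 327 values of these genes kept their direction and their side of the threshold, and 30 lost a call, 21 of them without the filter. Many of these genes were named because they passed the threshold or rose like AXL, so this share partly follows from the choice. Fits with a library left out are not part of it.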
